A study of Mus musculus with 36 samples.

Results

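The EGF receptor family and its ligands are described here as 9 genes, chosen by name and not by their values: the receptors Egfr, Erbb2 and Erbb3 and the ligands Areg, Ereg, Epgn, Btc, Tgfa and Hbegf. All 9 had a row in both count tables, among 20181 genes in Lrig1 GL and 22587 genes in Lgr5 GL. Mini-bulk RNA-seq was performed on 36 libraries, each from 150 tdTomato+ epidermal cells sorted from tail skin. In the wounded groups the zone taken held both wound bed and distal hair follicles (HFs). Cells were labelled in Lrig1-EGFP-ires-CreERT2 or Lgr5-EGFP-ires-CreERT2 mice that also carried Rosa26-fl/STOP/fl-tdTomato, by 1 topical dose of 4-hydroxytamoxifen given in every group, the unwounded 0w groups included. Mice of both sexes were wounded at 7 to 9 weeks of age, the age of the unwounded 0w mice. Later groups were older by the time since the first wound, and no unwounded group of their age was among these libraries. In comparisons with 0w, wounding and age therefore cannot be told apart. Groups of 3 libraries were taken from each population: unwounded skin (0w), skin 1w, 2w, 4w or 8w past a first wound (pw1), and skin 1w past a second wound that was made 8w after the first (1w pw2). Both Cre alleles sit in the gene of the marker they report, so Lrig1 GL cells come from mice with a targeted Lrig1 allele, and LRIG1 is itself an inhibitor of EGF receptors. The tdTomato mark is inherited, so later groups hold the progeny of the labelled cells.

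EGF receptors are tyrosine kinases of the cell surface that pair with each other when a ligand binds. The ligands are made as membrane-bound precursors and are cut free by ADAM proteases, after which the receptors signal through adaptors and RAS to the ERK cascade. In epidermis the pathway is known for driving keratinocyte growth and migration, and several of its ligands are known to be made by keratinocytes themselves.

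The shallowest and deepest libraries held 765252 and 3365666 counts for Lrig1 GL, and 1297798 and 6960537 for Lgr5 GL. A single gene, Gm12415, took from 12.04 to 52.07% of the counts in the Lgr5 GL libraries. In Lrig1 GL its share was no more than 0.0002121%. The Lgr5 GL totals include this gene, so they overstate the depth left for other genes. Markers of basal keratinocytes were present in every library, whereas summed fibroblast markers reached no more than 89.6 CPM (counts scaled to a common library size) in Lrig1 GL and 377.7 CPM in Lgr5 GL, and summed immune markers, of which 2 of 6 were in the tables, no more than 16.4 and 33.3 CPM. The summed basal markers ranged from 11140 to 28670 CPM in Lrig1 GL and from 9365 to 31400 CPM in Lgr5 GL. Their lowest group medians were 13330 CPM at 8w pw1 in Lrig1 GL and 11780 CPM at 4w pw1 in Lgr5 GL. The share of mitochondrial counts was 10.9 to 14.4% at 8w pw1 in Lrig1 GL, against 3.15 to 5.38% at 0w. CPM used library sizes scaled by the TMM method, within each population unless a scale of both together is named. Levels of the 2 populations are thus on different scales. For Egfr at 0w the means were 124.5 CPM in Lrig1 GL and 102.2 CPM in Lgr5 GL. On the scale of both together they were 108.8 and 113.8 CPM. In sorted pools of this kind, fewer cells of a type and less RNA per cell cannot be told apart.

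No member passed the test over the time course, which was edgeR's quasi-likelihood F-test. A call needed a p below 0.05 after Benjamini-Hochberg adjustment over all genes, together with a log2 fold change of more than 1 in size at some time point. For Lrig1 GL 0 of 8 tested members were called, beside 1.63% of 14306 genes, and 2 (Egfr and Tgfa) had an unadjusted p under 0.05, beside 20.5% of genes. For Lgr5 GL 0 of 9 were called, beside 1.13% of 18025 genes, and 3 (Areg, Hbegf and Epgn) had an unadjusted p under 0.05, beside 16.9%. DESeq2 called 2 members in each population, Egfr and Tgfa in Lrig1 GL and Areg and Hbegf in Lgr5 GL. It also called more genes in all, 1881 of 14306 in Lrig1 GL and 1683 of 18025 in Lgr5 GL. Ereg was left out of the test in Lrig1 GL, where 13 of 18 libraries had no count for it.

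The ligand genes Epgn, Ereg, Areg and Btc are neighbours on chromosome 5 (GRCm38): Epgn at chr5:91027464-91035215, Ereg at chr5:91074622-91093646 and Areg at chr5:91139599-91148432 on the plus strand, and Btc at chr5:91357261-91402994 on the minus strand. Tgfa lies at chr6:86195223-86275719, Egfr at chr11:16752203-16918158, Erbb2 at chr11:98412470-98437716 and Erbb3 at chr10:128567523-128589652. The values are sums over all exons of a gene, untranslated exons included. Exons of Ereg shared 141 bases with an antisense gene, Gm19610, those of Tgfa 118 bases with Gm43917 and those of Erbb2 9 bases with Mien1, and the strand setting of the counting was not given in the sources used here. The 250 bases before the start of Areg (chr5:91139349-91139598, plus strand) and of Egfr (chr11:16751953-16752202, plus strand) are printed from RefSeq on GRCm38.p6, because these 2 members had the smallest p of the ligands and of the receptors. Capitals mark every match to the cyclic AMP response element TGACGTCA, the GC box GGGCGG and the TATA box TATAAA on either strand. No match to the AP-1 motif TGANTCA was found in either window.
Areg: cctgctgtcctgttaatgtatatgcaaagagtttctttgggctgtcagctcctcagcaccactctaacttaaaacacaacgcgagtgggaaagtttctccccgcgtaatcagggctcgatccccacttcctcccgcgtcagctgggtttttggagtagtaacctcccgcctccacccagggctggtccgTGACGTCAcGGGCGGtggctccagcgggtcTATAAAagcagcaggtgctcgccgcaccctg
Egfr: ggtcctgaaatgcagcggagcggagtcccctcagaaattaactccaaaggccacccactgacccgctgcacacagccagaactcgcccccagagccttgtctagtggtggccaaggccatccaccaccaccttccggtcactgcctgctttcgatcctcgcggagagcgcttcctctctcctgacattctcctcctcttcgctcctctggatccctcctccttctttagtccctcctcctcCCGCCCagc
The Areg window held a cyclic AMP response element that began 61 bases before the start, a GC box at 52 and a TATA box at 31. The Egfr window held a GC box at 9 bases before the start, on the minus strand, and no TATA box. Over 32851 RefSeq windows of the same length, the response element was present in 1.55%, the GC box in 32.7%, the TATA box in 12.4% and the AP-1 motif in 6.75%. Windows were at hand for 6 of the 9 members (Egfr, Erbb2, Areg, Epgn, Btc and Tgfa), and of these only that of Areg held the response element.

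Levels between genes were compared as CPM per kilobase of exon, as the mean over 18 libraries ± SD. The receptors of Lrig1 GL cells stood at 13.9 ± 9.11 for Egfr, 12.7 ± 4.62 for Erbb2 and 9.61 ± 3.77 for Erbb3. The ligands followed, with 4.76 ± 6.18 for Areg, 4.07 ± 3.29 for Hbegf, 3.37 ± 2.11 for Tgfa, 2.43 ± 4.76 for Epgn, 0.78 ± 1.28 for Btc and 0.405 ± 1.17 for Ereg. For Lgr5 GL cells Erbb2 was at 13.96 ± 5.54, Egfr at 9.51 ± 2.64 and Erbb3 at 7.11 ± 2.65 CPM per kilobase. Tgfa led the ligands there with 3.95 ± 2.09, before Areg with 2.93 ± 5.84, Hbegf with 2.65 ± 4.84, Epgn with 1.91 ± 3.31, Ereg with 1.21 ± 2.20 and Btc with 0.411 ± 0.906. Neighbouring receptors in these orders differed by less than the larger of their SDs, as did neighbouring ligands. The SD of Areg, Ereg, Epgn and Btc exceeded the mean in both populations, and between 3 and 13 of 18 libraries had no read for each of them.

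Egfr, the receptor that binds all 6 ligands of the set, was measured in every library. Its level in Lrig1 GL was 80.1, 181.9 and 111.4 CPM at 0w and 122.4, 91.6 and 140.3 CPM at 1w pw1. It was 86.7, 119.0 and 204.4 CPM at 2w pw1 and 130.9, 47.7 and 104.5 CPM at 4w pw1. At 8w pw1 the 3 libraries held 419.8, 196.0 and 407.9 CPM, and at 1w pw2 they held 93.9, 99.2 and 196.0 CPM. All 3 libraries at 8w pw1 thus lay above all 3 at 0w, and 2 of them lay above every other Lrig1 GL library. The mean was 341.3 ± 126 CPM at 8w pw1 against 124.5 ± 52.2 CPM at 0w (SD, n = 3), a log2 fold change of 1.45 ± 0.461 (SE) with an edgeR p of 0.00565 and an adjusted p of 0.0789.

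This difference did not pass the threshold, in a comparison where 2.82% of genes were called and 22.9% had an unadjusted p under 0.05. With DESeq2 the log2 fold change was 1.51 and the adjusted p 0.0177. With each library's trend on GC content removed it was 1.00 with an adjusted p of 0.302, and with 2 surrogate variables it was 0.54 with an adjusted p of 0.885. The nuclear RNA Malat1 was also highest at 8w pw1 in Lrig1 GL, with 7837 to 11400 CPM against 1410 to 5483 CPM at 0w. The part of that RNA and of the mitochondrial share in the level of Egfr was not tested. From 8w pw1 to 1w pw2 the log2 fold change of Egfr was -1.40 ± 0.46, with an edgeR adjusted p of 0.782, and the lowest library of 8w pw1 and the highest of 1w pw2 were both at 196.0 CPM.

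Among Lgr5 GL cells the mean of Egfr lay between 89.9 CPM at 1w pw1 and 121.7 CPM at 4w pw1, and single libraries between 51.2 and 155.5 CPM. At most, the log2 fold change there was 0.25 ± 0.373, for 4w pw1 and 0w. When the change of Egfr up to 8w pw1 was set against that of the other population, the test gave a log2 difference of 1.39 ± 0.593, Lrig1 GL minus Lgr5 GL, with an edgeR adjusted p of 0.216, and did not pass.

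Erbb2, the receptor that has no ligand of its own and pairs with the others, held 35.9, 120.6 and 83.3 CPM at 0w in Lrig1 GL cells. The mean of the later groups lay between 47.5 CPM at 1w pw2 and 82.8 CPM at 1w pw1, with no adjusted p under 0.383 against 0w. The 0w libraries of Lgr5 GL held 141.6, 92.1 and 68.2 CPM, a mean of 100.7 CPM, and every later mean was lower, from 54.6 CPM at 1w pw1 to 80.5 CPM at 8w pw1. Libraries overlapped at each of these time points, and the log2 fold change furthest from 0 was -0.88 ± 0.501 at 1w pw1 with an edgeR adjusted p of 0.351.

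Erbb3, the receptor with a weak kinase that mainly binds neuregulins, held 2.57, 88.9 and 57.6 CPM at 0w in Lrig1 GL cells. Its lowest value, from 5 reads, came from the 0w library with the lowest level of Egfr and of Erbb2 in its group. At 1w pw1 Erbb3 held 103.4, 72.4 and 75.3 CPM, and the log2 fold change against 0w was 0.75 ± 0.672 with an edgeR adjusted p of 0.749. Erbb3 ranged from 15.9 to 66.8 CPM over the 18 libraries of Lgr5 GL, and its log2 fold change was furthest from 0 at 2w pw1, with 0.69 ± 0.452. The summed level of the 3 receptors in Lrig1 GL was 459.8 ± 136 CPM at 8w pw1 and between 202.2 and 284.6 CPM in the other groups.

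**Figure D1:**
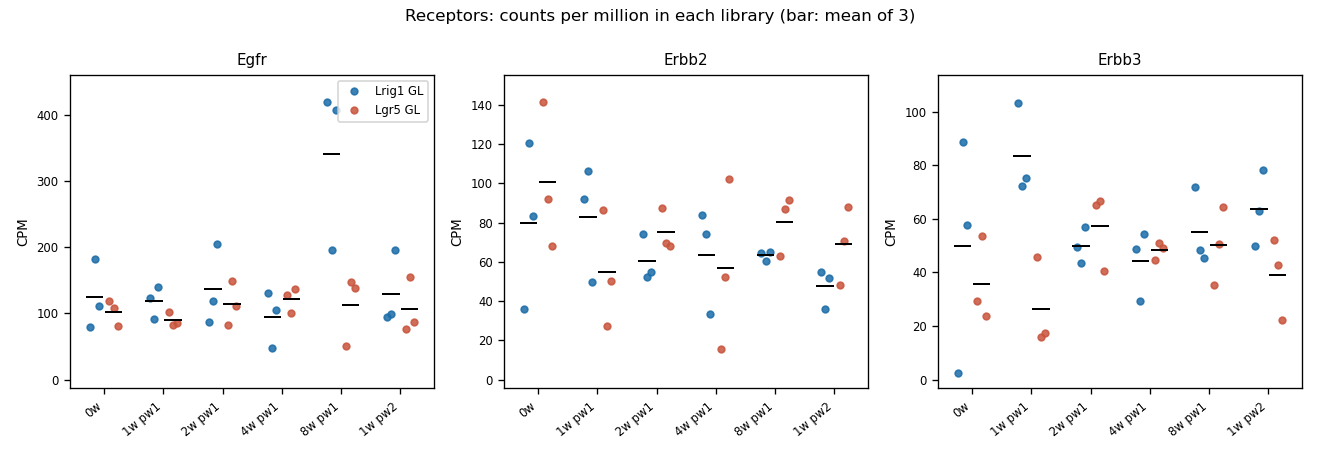
Level in CPM (y axis) of Egfr, Erbb2 and Erbb3 at 6 time points (x axis), with 1 point per library and a bar at the mean of 3; Lrig1 GL is blue and Lgr5 GL is red. For Egfr, 2 of the 3 Lrig1 GL libraries at 8w pw1, at 419.8 and 407.9 CPM, stand above all other points. CPM were scaled within each population.

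Areg, which encodes the ligand amphiregulin, had the smallest p of the set, in Lgr5 GL cells. Its counts there were 5, 0 and 0 at 0w and 85, 13 and 65 at 1w pw1. They were 3, 0 and 0 at 2w pw1, 0, 10 and 15 at 4w pw1, 0, 6 and 0 at 8w pw1, and 0 in all 3 libraries at 1w pw2. The 3 libraries at 1w pw1 held 27.7, 7.36 and 11.8 CPM and lay above those of 0w, 2w pw1, 8w pw1 and 1w pw2, while 1 library at 4w pw1 reached 10.1 CPM. The time-course test of Areg had a p of 0.000996 and an edgeR adjusted p of 0.0631. Without Lgr5 GL 4w pw1 replicate a, a library with no Areg read, the adjusted p was 0.0442, limma-voom gave 0.0415 and DESeq2 gave 0.00365. It was 0.168 without Lgr5 GL 1w pw1 replicate 1, the library with the most Areg reads, 0.137 with 2 surrogate variables and 0.183 with the replicate number as a block.

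Against 0w, the log2 fold change of Areg at 1w pw1 in Lgr5 GL cells was 5.20 ± 1.73 with an edgeR adjusted p of 0.132, in a comparison where 1.29% of genes were called and 18.6% had an unadjusted p under 0.05. Without Lgr5 GL 0w replicate a, which held the 5 reads, the 0w group was at 0 and no fold was taken. At 1w pw2, where no read was seen, Areg was at least 23.2-fold lower than at 1w pw1, taking 3 counts per library as the floor, which is a mean of 0.673 CPM against 15.6 CPM. Without Lgr5 GL 1w pw1 replicate 1 the bound was 14.2-fold, with a mean of 9.55 CPM at 1w pw1. The edgeR adjusted p of that difference was 0.0764, where 0.266% of genes were called and 16.8% had an unadjusted p under 0.05. Areg reads were thus seen in all 3 Lgr5 GL libraries at 1w pw1 and in none at 1w pw2, and the difference did not pass the threshold.

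The counts of Areg in Lrig1 GL were 0, 6 and 0 at 0w, 31, 5 and 20 at 1w pw1 and 30, 38 and 2 at 1w pw2. At 2w, 4w and 8w pw1 they were 0, 7 and 20, 0, 7 and 1, and 0, 4 and 15. The libraries at 1w pw1, at 29.4, 5.66 and 9.23 CPM, lay above those at 0w, with a log2 fold change of 3.98 ± 1.85 and an edgeR adjusted p of 0.438. Without Lrig1 GL 0w replicate 2, the library that held the 6 reads, the 0w group was at 0 and no fold was taken. The libraries at 1w pw2, at 14.2, 14.2 and 1.32 CPM, overlapped those at 0w and at 1w pw1. The test of whether the change of Areg from 0w to 1w pw2 differed between the populations did not pass, with an edgeR adjusted p of 0.285, and Lgr5 GL was at 0 there, so no fold is given.

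Epgn, epigen, had no read in any of the 6 libraries at 0w, 3 per population. Its counts in Lrig1 GL were 26, 1 and 0 at 1w pw1, 39, 0 and 1 at 4w pw1, 0, 0 and 18 at 8w pw1 and 0, 61 and 1 at 1w pw2, and no read was seen at 2w pw1. Each of those 4 groups had 1 library with many reads and 2 libraries with 1 or none. Those in Lgr5 GL were 60, 11 and 2 at 1w pw1, 0, 0 and 44 at 2w pw1, 17, 0 and 6 at 4w pw1 and 0, 7 and 27 at 8w pw1, with none at 1w pw2. At 1w pw1 all 3 Lgr5 GL libraries had Epgn reads and none of the 0w libraries did, with an edgeR adjusted p of 0.163. A count of 0 at 0w allowed a mean level of up to 0.779 CPM in Lgr5 GL and 1.56 CPM in Lrig1 GL, and covers counting error only.

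Ereg, epiregulin, was seen with 3 or more reads in 3 of 18 Lrig1 GL libraries and in 13 of 18 Lgr5 GL libraries. These numbers depend on depth, with a median total of 1930063 counts in Lrig1 GL and 4284763 in Lgr5 GL, Gm12415 included. Of the 3 Lrig1 GL libraries 2 were at 1w pw2, with 16 and 30 reads, and no read was found at 2w, 4w or 8w pw1. The Lgr5 GL level of Ereg was 38.8, 5.66 and 2.53 CPM at 1w pw1 and 4.99, 0 and 0.345 CPM at 0w, and the groups overlapped. The log2 fold change was 3.10 ± 1.65 with an edgeR adjusted p of 0.319.

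Btc, betacellulin, had 21, 1 and 2 reads at 1w pw1 and 0, 21 and 23 reads at 1w pw2 in Lrig1 GL cells, against 0, 18 and 0 reads at 0w. At 2w and 4w pw1 no Lrig1 GL library had more than 1 read. Lgr5 GL cells had 40, 6 and 0 reads of Btc at 0w and 48, 0 and 0 at 1w pw1, and no read in any library at 4w pw1 or 1w pw2. Between the populations, the test of the change of Btc from 0w to 1w pw2 gave an edgeR p of 0.0153 and an adjusted p of 0.277, and did not pass.

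Tgfa, transforming growth factor alpha, had reads in all 36 libraries. Its level in Lrig1 GL cells was 21.0, 11.8 and 5.12 CPM at 0w, 52.2, 30.5 and 24.9 CPM at 1w pw1, and 10.7, 6.93 and 7.10 CPM at 2w pw1. It was 13.4, 11.1 and 12.2 CPM at 4w pw1, 37.9, 34.8 and 20.4 CPM at 8w pw1 and 18.9, 32.6 and 42.1 CPM at 1w pw2. All 3 libraries at 1w pw1 lay above all those at 0w, 2w and 4w pw1, whereas those at 8w pw1 and 1w pw2 overlapped 0w by 1 library. The log2 fold changes against 0w were 1.49 ± 0.581 at 1w pw1, 1.29 ± 0.576 at 8w pw1 and 1.29 ± 0.577 at 1w pw2, with edgeR adjusted p of 0.346, 0.192 and 0.243. Over the time course the p of Tgfa was 0.00765 and the adjusted p 0.106.

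Among Lgr5 GL libraries Tgfa stood at 22.0, 27.2 and 41.0 CPM at 0w, and the mean of the later groups ran from 19.4 CPM at 2w pw1 to 34.2 CPM at 8w pw1. No log2 fold change of Tgfa there exceeded 0.63 in size, with standard errors of 0.707 to 0.721. At 0w Tgfa was at 10.99 ± 6.85 CPM in Lrig1 GL and 33.5 ± 11.02 CPM in Lgr5 GL on the scale of both populations together, a log2 difference of -1.60 ± 0.667. All 3 libraries of Lrig1 GL lay below those of Lgr5 GL, and the edgeR adjusted p of 0.202 did not pass the threshold.

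Hbegf, heparin-binding EGF-like growth factor, had 1 library far above the others at 1w pw1 in Lgr5 GL and 1 at 0w in Lrig1 GL. Lgr5 GL libraries held 103.1, 5.66 and 5.24 CPM of it at 1w pw1 and 1.59, 6.85 and 13.4 CPM at 0w. The log2 fold change was 2.39 ± 1.06 with all 3 libraries, and was -0.41 without Lgr5 GL 1w pw1 replicate 1. From 1w pw1 to 1w pw2 it was -3.58 ± 1.12 with an edgeR adjusted p of 0.143, and -0.77 without the same library. Lrig1 GL libraries held 0, 55.2 and 7.05 CPM of Hbegf at 0w, 34.2, 13.6 and 43.4 CPM at 1w pw1, 0, 12.8 and 0.536 CPM at 8w pw1 and 38.2, 17.96 and 28.9 CPM at 1w pw2. The 3 libraries at 1w pw2 lay above those at 8w pw1, with an edgeR adjusted p of 0.91.

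**Figure D2:**
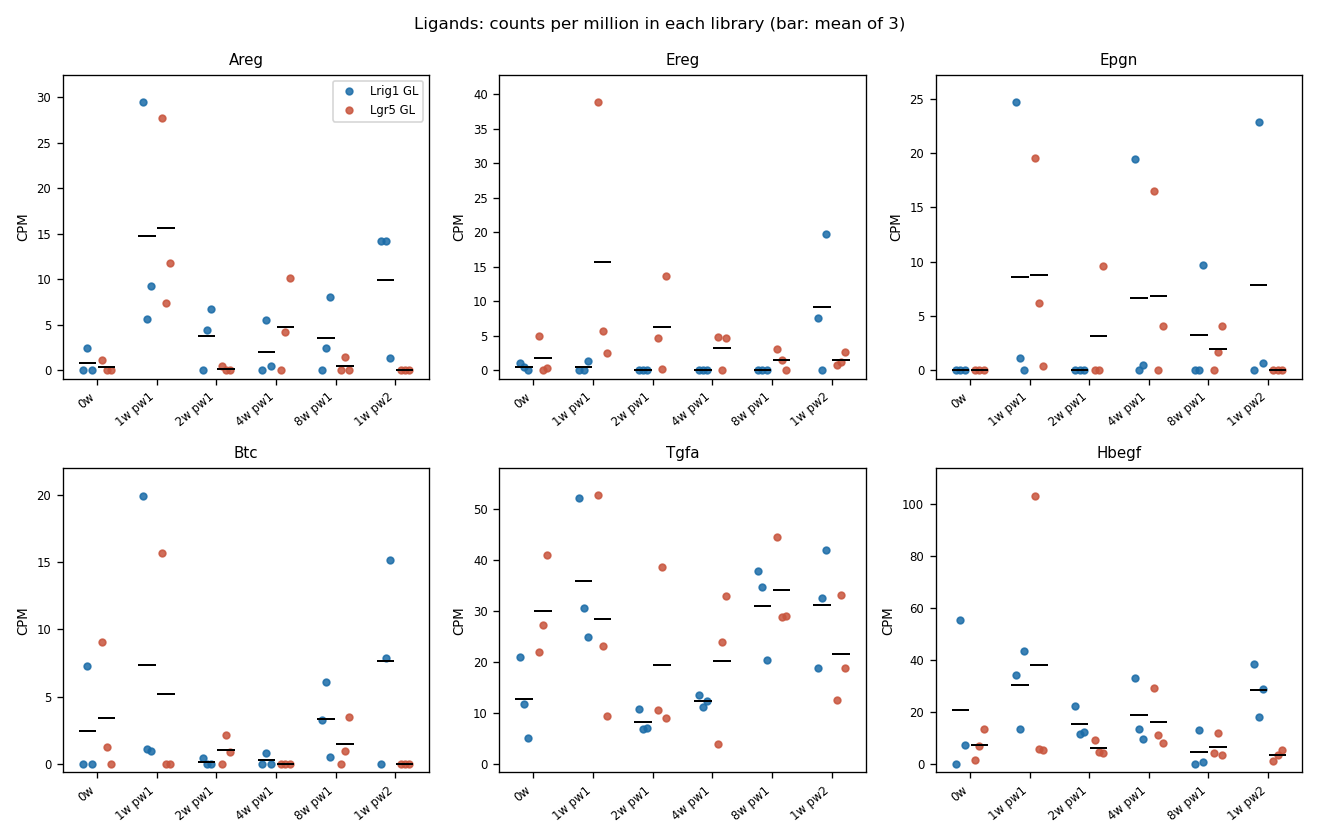
Level in CPM (y axis, scaled per panel) of the 6 ligands at 6 time points (x axis), with 1 point per library and a bar at the mean of 3; Lrig1 GL is blue and Lgr5 GL is red. Most Areg, Ereg, Epgn and Btc points lie at or near 0, and the highest Lgr5 GL point of each panel is 1w pw1 replicate 1. CPM were scaled within each population.

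A single library held the highest Lgr5 GL level of all 6 ligands. This library, Lgr5 GL 1w pw1 replicate 1, had a summed ligand level of 257.7 CPM, and the other 2 libraries of its group had 48.1 and 29.3 CPM. Among Lrig1 GL cells the replicate 1 library of 1w pw1 held the highest level of 4 of the 6 ligands (Areg, Epgn, Btc and Tgfa) and a sum of 160.4 CPM, against 52.0 and 79.9 CPM in the other 2. The wound keratin level, summed over the wound-activated keratinocyte markers, was 10810 CPM in that Lrig1 GL library, the highest of its population, and 6605 CPM in the Lgr5 GL library, the fourth highest. The highest wound keratin level of Lgr5 GL, 11080 CPM, was that of 1w pw1 replicate 3, whose ligand sum was the lowest of its group at 29.3 CPM.

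The summed ligand level in Lrig1 GL cells was 37.1 ± 35.0 CPM at 0w, 97.4 ± 56.3 CPM at 1w pw1 and 94.0 ± 14.6 CPM at 1w pw2 (SD, n = 3), and between 27.4 and 45.5 CPM at 2w, 4w and 8w pw1. The 3 libraries at 1w pw2, from 78.8 to 107.9 CPM, lay above all 3 at 0w, from 12.2 to 77.2 CPM, and above all libraries of 2w, 4w and 8w pw1. For Lgr5 GL the sum was 43.0 ± 10.4 CPM at 0w, 111.7 ± 127 CPM at 1w pw1 and 26.3 ± 11.6 CPM at 1w pw2. The libraries of 1w pw2 ranged from 14.4 to 37.7 CPM. The lowest value of Lrig1 GL at the same time was 78.8 CPM, on a scale fitted to that population alone. The sums were not taken on a scale of both populations together. An exact two-sided permutation test of 3 libraries against 3 cannot give a p below 0.1, and the sums, which were set after the values were known, were not tested. Of 18 pairs of ligand and library per group, 3 or more reads were found in 7 pairs of 0w, 12 of 1w pw1 and 13 of 1w pw2 for Lrig1 GL, and in 10, 15 and 9 for Lgr5 GL. These numbers depend on depth, which differed between the populations.

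**Figure D3:**
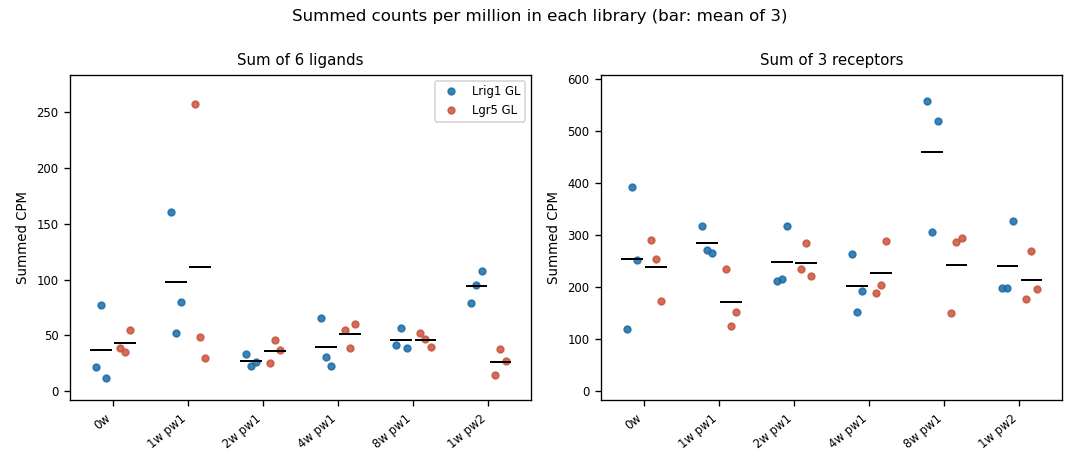
Summed CPM (y axis) of the 6 ligands and of the 3 receptors at 6 time points (x axis), with 1 point per library and a bar at the mean of 3; Lrig1 GL is blue and Lgr5 GL is red. At 1w pw2 the Lrig1 GL ligand sums of 78.8 to 107.9 CPM lie above the Lgr5 GL sums of 14.4 to 37.7 CPM, each on the scale of its own population.

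Against 0w, no member was called at any single time point in either population. For Lrig1 GL 0.217%, 0%, 0.0419%, 2.82% and 1.23% of genes were called, in the order 1w, 2w, 4w and 8w pw1 and then 1w pw2, and 6 of 40 pairs of member and time point had an unadjusted p under 0.05, beside 14.3% of all pairs. For Lgr5 GL the shares were 1.29%, 0%, 0.155%, 0% and 0%, and 7 of 45 member pairs had an unadjusted p under 0.05, beside 10.1% of all pairs. DESeq2 called 1 member against 0w in each population, Egfr in Lrig1 GL and Epgn in Lgr5 GL. The number of all genes that DESeq2 called in these comparisons was not counted. The comparisons share the 0w libraries.

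Between later time points no member was called either. From 1w pw1 to 1w pw2, from 8w pw1 to 1w pw2 and from 1w pw1 to 4w pw1, 0%, 0.00699% and 0% of genes were called in Lrig1 GL, and 3 of 24 member pairs had an unadjusted p under 0.05, beside 7.68% of all pairs. In Lgr5 GL the shares were 0.266%, 0% and 3.15%, and 5 of 27 member pairs had an unadjusted p under 0.05, beside 14.5%. DESeq2 called 0 members in Lrig1 GL and 3 in Lgr5 GL (Areg, Epgn and Hbegf). Its calls over all genes were not counted here either.

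Between the populations, no member was called at 0w, where 2.90% of 16153 genes were called and 17.5% had an unadjusted p under 0.05, as did 1 of 9 members (Tgfa). In the test of whether changes from 0w differed between the populations no member was called, while 0.0495%, 0%, 0.0929%, 1.11% and 0.155% of genes were called at the 5 time points in the same order. Of 45 member pairs 3 had an unadjusted p under 0.05 (Egfr at 8w pw1, Areg and Btc at 1w pw2), or 6.67%, beside 13.1% of all pairs. Epgn had no read at 0w in either population, so these tests could not call it. It is still counted among the 9 members and the 45 pairs. DESeq2 called 0 members in both tests.

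**Figure D4:**
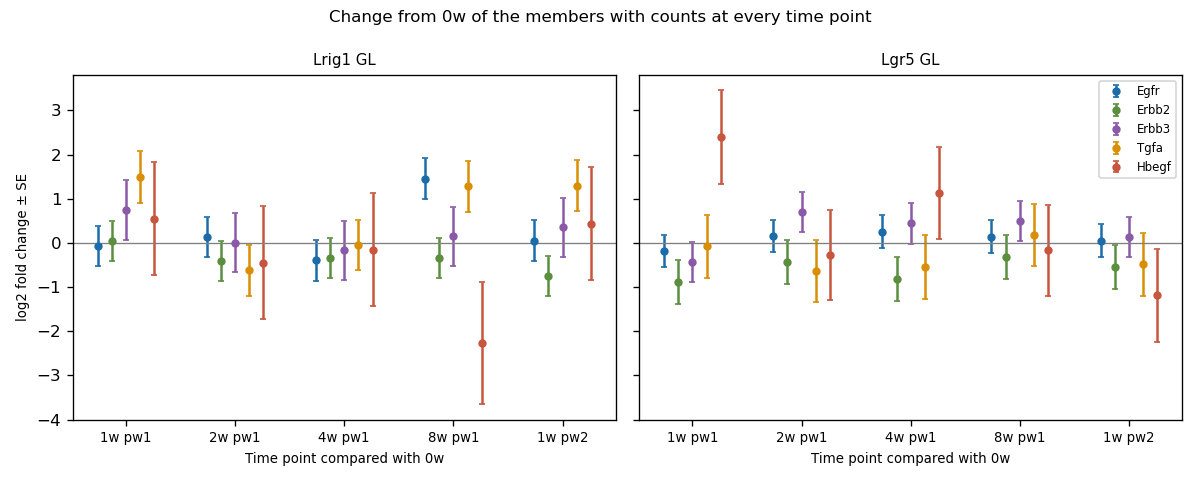
Log2 fold change against 0w ± SE (y axis) of the 5 members with reads in every group, at 5 time points (x axis), in Lrig1 GL (left) and Lgr5 GL (right); each color is a gene. Egfr at 8w pw1 in Lrig1 GL, at 1.45 ± 0.461, lies further from 0 than 3 times its SE, and no point passed the adjusted threshold.

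The genes whose level followed a member most closely were taken over 18 libraries of a population, among genes with a mean of at least 10 CPM. For Egfr in Lrig1 GL cells Pearson's r of log2 CPM was 0.874 with Samd5, 0.835 with Pik3r1, 0.826 with Taf1, 0.819 with Mbnl1 and 0.808 with Ivns1abp. Further down the order it was 0.801 with Xist and 0.795 with Malat1. For Areg in Lgr5 GL cells it was 0.809 with Blmh, 0.763 with Vmp1, 0.759 with Klk13 and 0.693 with Adgrg1, beside 1 predicted gene. These are descriptions over libraries that share groups and depth. Mice of both sexes were used, and the labels do not give the sex behind each library.

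Of 48 genes of the wider pathway, 44 were tested in Lrig1 GL and 46 in Lgr5 GL, and 2 were called over the time course in each population, beside 1.63% and 1.13% of all genes. With 2 surrogate variables 0 were called in either, where 9 of 14306 and 64 of 18025 genes were called. Among 5 genes of ligand release, Adam10, a protease that frees several of these ligands, rose in Lrig1 GL at 1w pw2. Its libraries held 633.3, 796.4 and 935 CPM there and 208.3, 213.0 and 238.3 CPM at 0w, so the groups were apart, with a log2 fold change of 1.84 ± 0.313 and an edgeR adjusted p of 0.0164. Adam10 also lay above 0w in all libraries at 1w pw1 (247.4 to 379.6 CPM) and 8w pw1 (338.3 to 442.2 CPM), with edgeR adjusted p of 0.478 and 0.104. Its time-course adjusted p was 0.133 with 2 surrogate variables, 0.0775 with the replicate block, and 0.0722 and 0.0568 without 1w pw2 replicate 2 or 3. In Lgr5 GL cells the log2 fold change of Adam10 at 1w pw2 against 0w was 0.11 ± 0.344. Timp3, an inhibitor of such proteases, had the smallest p of that list in these cells. There Timp3 stood at 71.2 CPM at 1w pw1 and 197.2 CPM at 0w, a log2 fold change of -1.47 ± 0.47 with an edgeR adjusted p of 0.114.

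Among 13 response genes of ERK, 12 tested in Lrig1 GL, Spry2, a feedback inhibitor of receptor tyrosine kinases, rose in Lrig1 GL at 8w pw1 and at 1w pw2. It held 177.7, 184.9 and 273.8 CPM at 8w pw1 and 117.1, 202.6 and 244.5 CPM at 1w pw2, against 49.1, 57.0 and 67.8 CPM at 0w. The log2 fold changes were 1.87 ± 0.332 and 1.70 ± 0.331, with edgeR adjusted p of 0.016 and 0.0232. With 2 surrogate variables the time-course adjusted p of Spry2 was 0.264. Lgr5 GL cells held a mean of 200.7 CPM of Spry2 at 0w and 103.1 CPM at 4w pw1, with an adjusted p of 0.257. In Lrig1 GL the median over the list was -0.46 at 8w pw1 and -0.30 at 1w pw2, beside -0.01 and -0.06 over all genes. Among Lgr5 GL cells Ccnd1, cyclin D1, and Ier3, an immediate early gene, were called over the time course. Ccnd1 rose at 4w pw1, where its libraries held 96.4, 113.8 and 133.8 CPM against 28.1, 35.1 and 39.6 CPM at 0w, a log2 fold change of 1.74 ± 0.309 with an edgeR adjusted p of 0.0319. All libraries at 1w pw1, 2w pw1 and 1w pw2, from 62.0 to 123.6 CPM, also lay above those at 0w, without a call. Summed basal keratinocyte markers stood at 9365 to 12040 CPM at 4w pw1 and 22880 to 29930 CPM at 0w. The part of that difference in the level of Ccnd1 was not tested. Over the time course the adjusted p of Ccnd1 was 0.0652 with 2 surrogate variables and 0.112 with the replicate block. Leaving out 0w replicate a or b gave 0.0773 or 0.0704, 4w pw1 replicate c 0.0617, 8w pw1 replicate b or c 0.0675 or 0.055, and 1w pw2 replicate 3 0.0506. Ier3 held 258.8, 321.0 and 382.4 CPM at 8w pw1 and 61.7, 146.3 and 162.5 CPM at 0w, and its adjusted p was 0.0354 over the time course and 0.509 at 8w pw1 alone. The time-course value of Ier3 was 0.0521 with 2 surrogate variables and 0.119 with the replicate block. It lay between 0.0531 and 0.124 without each of 8 libraries: 2w pw1 replicate c, 4w pw1 replicate b or c, 8w pw1 replicate a, b or c, and 1w pw2 replicate 2 or 3.

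The other lists held no call over the time course. Of 6 other receptors and ligands (Erbb4, Egf and the neuregulins), 3 were tested in Lrig1 GL and 4 in Lgr5 GL, and Nrg1, a ligand of Erbb3, had the smallest p in both. Lrig1 GL libraries of 0w held 2.56, 2.57 and 17.1 CPM of Nrg1, against 44.1, 56.8 and 59.8 CPM at 1w pw1 and 32.1, 61.0 and 69.1 CPM at 1w pw2. Both later groups were apart from 0w, with log2 fold changes of 2.82 ± 0.764 and 2.83 ± 0.763 and edgeR adjusted p of 0.161 and 0.0745. In Lgr5 GL cells Nrg1 was at 26.6 CPM at 1w pw1 and 5.11 CPM at 0w, with an adjusted p of 0.192.

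Among 8 genes that dampen the receptors, Lrig1 had the smallest p in both populations. Lrig1 GL cells held 183.2, 223.8 and 243.6 CPM at 0w and no more than 154.7 CPM in any later library, with a log2 fold change of -1.56 ± 0.339 at 4w pw1 and an edgeR adjusted p of 0.165. For Lgr5 GL its mean was 78.6 CPM at 0w and 157.9 CPM at 2w pw1, with an adjusted p of 0.434. These counts include any read from the targeted allele that falls on Lrig1 exons. Among 16 adaptors and kinases, Braf had the smallest p in both. In Lrig1 GL cells it was at 89.1 CPM at 8w pw1 and 20.2 CPM at 0w, with an adjusted p of 0.0656, and Hras, a RAS protein, fell at 8w pw1 with a log2 fold change of -1.17 ± 0.307 and an edgeR adjusted p of 0.0491. In Lgr5 GL cells Braf rose from 22.5 CPM at 1w pw1 to 107.1 CPM at 4w pw1, a log2 fold change of 2.27 ± 0.578 with an adjusted p of 0.0432. The libraries of 4w pw1 held 33.1, 118.2 and 170.1 CPM of Braf. Malat1 also differed between these groups, with 446.2 to 592.3 CPM at 1w pw1 and 610.7 to 2603 CPM at 4w pw1. Summed basal keratinocyte markers stood at 25820 to 31400 CPM and 9365 to 12040 CPM. The part of these differences in the level of Braf was not tested. At 8w pw1 in Lrig1 GL 10 of the 16 genes had a log2 fold change above 0 and 6 below, with 0 called higher and 1 called lower (Hras), and the median was 0.76, beside -0.01 over all genes. In these libraries the mitochondrial share was 10.9 to 14.4% against 3.15 to 5.38% at 0w, and Malat1 stood at 7837 to 11400 CPM against 1410 to 5483 CPM. Their part in the median was not tested.

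**Figure D5:**
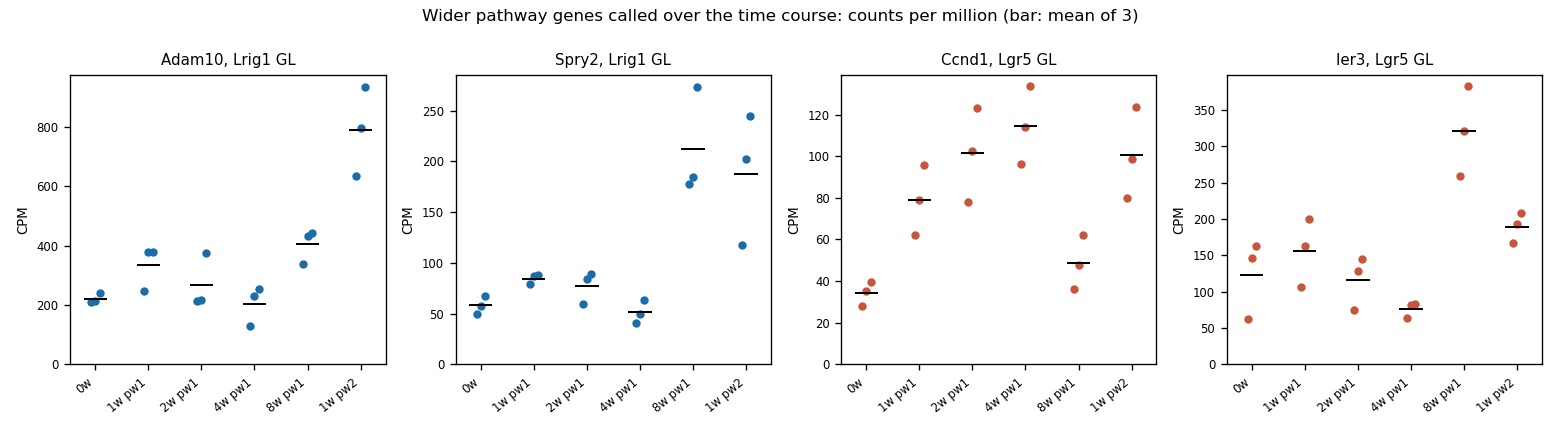
Level in CPM (y axis) of the 4 wider pathway genes called over the time course, at 6 time points (x axis), with 1 point per library and a bar at the mean of 3. Adam10 at 1w pw2 and Spry2 at 8w pw1 and 1w pw2 in Lrig1 GL (blue) lie above all 0w points, as do Ccnd1 at 4w pw1 and Ier3 at 8w pw1 in Lgr5 GL (red). So do Adam10 and Spry2 at 1w pw1 and Adam10 at 8w pw1. Ccnd1 at 1w pw1, 2w pw1 and 1w pw2 and Ier3 at 1w pw2 also lie above 0w.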

How the data were processed

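Mini-bulk RNA-seq of 36 libraries was analysed. Per the submitters' processing notes and the study's methods, the authors trimmed reads with Trim Galore 0.5.0, aligned them to GRCm38 (mm10) with HISAT2 2.2.01 and assigned them to gene names over exons with featureCounts 1.6.12, and deposited raw counts in 1 table per population. Library preparation without molecular identifiers followed a modified Smart-seq2 protocol, so floors of 3 counts cover counting error only. For 15 columns the name matched 1 labelled sample. For the other 21 it matched a group only, and those libraries are called replicates a, b and c. No per-sample column was left unused.

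Counts were tested in R 4.3.3 with edgeR 4.0.16 (filterByExpr by group, TMM, prior count 0.125, quasi-likelihood F-test), per population and, for differences between populations, in 1 model of both tables, with Benjamini-Hochberg adjustment over all genes tested. Calls against 0w also needed a log2 fold change above 1, while the other comparisons used the adjusted p alone. SE is the log2 fold change divided by the square root of F. The methods of the study name surrogate variables in unstated number, which were kept as an alternative (sva 3.50.0). Other alternatives were DESeq2 1.42.0, its size factors, limma-voom (limma 3.58.1), the likelihood ratio test, 2 other filters, a prior count of 2, a replicate block, Gm12415 left out, each library left out, and a GC trend removed, which was added after the data were seen. Gene lengths and positions came from GENCODE on GRCm38, and sequences from RefSeq. The main edgeR fit was tested on simulated counts, and no such test is given for the other steps.

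The members, gene lists and markers were chosen with earlier results of these data known. Named genes were all 9 members, the listed genes called over the time course or, in a list with none, the gene with the smallest p, and the 5 closest genes to the member with the smallest p per population. Hras, Malat1, Xist and the calls of Braf were named after their values were seen. Same-numbered libraries did not deviate together (mean r -0.0054 in Lrig1 GL and 0.00258 in Lgr5 GL), so no pairing was used. The study's text gives 3 mice for its comparison of these libraries, but the labels do not tie each library to a mouse, and p-values measure the spread between libraries.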

Additional observations from a re-analysis of the deposited data

How the results depend on the processing

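The main counts were 0 members called in every comparison and 2 wider pathway genes per population. Members called over the time course in Lrig1 GL were 2 with DESeq2 and 2 with the likelihood ratio test (Egfr and Tgfa), and at single time points against 0w 1 with each (Egfr). In Lgr5 GL they were 2 with DESeq2, 3 with the likelihood ratio test and 1 with limma-voom over the time course, 1, 1 and 0 against 0w, and 3, 3 and 1 between later time points. Over all genes the time-course calls lay between 9 with 2 surrogate variables and 1999 with the likelihood ratio test in Lrig1 GL (233 as reported), and between 46 with the replicate block and 1975 with the likelihood ratio test in Lgr5 GL (203). DESeq2 called 1881 and 1683 genes and limma-voom 117 and 353, of 14306 tested in Lrig1 GL and 18025 in Lgr5 GL. The replicate block called 16 in Lrig1 GL, and 2 surrogate variables 64 in Lgr5 GL. Calls over all genes by setting were not counted for the other comparisons. Wider pathway genes called over the time course were 10 with DESeq2, 11 with the likelihood ratio test, 0 with 2 surrogate variables and 1 with the replicate block in Lrig1 GL, and 6, 6, 0 and 0 in Lgr5 GL. The cause of these differences was not tested. No other setting applied to all libraries changed the number of members called, or moved that of wider pathway genes by over 1.5 times.

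With each library left out in turn, members called over the time course ranged from 0 to 1 in Lgr5 GL (Areg, without 4w pw1 replicate a), and stayed at 0 in the other comparisons of members. The wider pathway count lay between 1 and 4 for Lrig1 GL and between 0 and 2 for Lgr5 GL. Adam10 was not called without 1w pw2 replicate 2 or 3 (adjusted p 0.0722 and 0.0568), and 4 genes were called without 0w replicate 2. In Lgr5 GL Ccnd1 or Ier3 was lost without 0w replicate a or b, 2w pw1 replicate c, 4w pw1 replicate b, 8w pw1 replicate a or 1w pw2 replicate 2, and both without 4w pw1 replicate c, 8w pw1 replicate b or c or 1w pw2 replicate 3. The log2 fold change of Hbegf in Lgr5 GL reversed at 1w pw1 against 0w, to -0.99 with 2 surrogate variables and -0.41 without 1w pw1 replicate 1 (up to 3.13 without 0w replicate c), and at 1w pw2 against 1w pw1 to 0.13 with 2 surrogate variables. With the replicate block no member was called, and the adjusted p of Areg over the time course was 0.183 in Lgr5 GL. Many libraries held fewer than 3 reads of Areg, Ereg, Epgn and Btc.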
